A study of Rattus norvegicus with 14 samples.

Results

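Neurotrophins and their Trk and p75 receptors were followed here through 7 genes, taken by symbol from the deposited comparison tables: the ligand genes Bdnf, Ntf3 and Ntf4, the Trk receptor genes Ntrk2 and Ntrk3, the p75 receptor gene Ngfr, and Sort1. Of the 7, 6 were listed in all 3 tables, which together hold 17905 gene identifiers. Ntf4 was listed in 2 tables and was absent from that of the new-object group against Control.

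RNA was sequenced from the caudal perirhinal cortex, a temporal lobe area needed for judging whether an object has been met before, of 14 male Lister Hooded rats weighing 350 to 450 g. Rats of group Familiar (5 rats) met one set of objects in every training session of the bow-tie maze and met that set again at test. In the group called new-object here (5 rats), training used changing sets and the objects of the test session had never been seen. Group Control (4 rats) had no maze sessions at all, and shared the limited feeding and the handling of the trained groups. Each cage held a rat of group Familiar with one of the new-object group, but which rats shared a cage is not given in the sources used here, and it could not be taken into account here. Tissue was taken 1 h after the test session in the trained groups. The trained rats that were sequenced had been picked partly for how they explored in the test session. The trained groups therefore differ in that behaviour partly by selection, besides their training. The study also reports less total exploration at test in group Familiar than in the new-object group. An age is not given in the sources used here.

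Neurotrophins are secreted growth factors that are made as larger precursors and cut to their mature form. Mature BDNF and NT-4 bind the receptor tyrosine kinase TrkB, NT-3 binds mainly TrkC, and all of them can bind p75, a receptor without kinase activity. Sortilin pairs with p75 as a receptor for uncut neurotrophins and also sorts BDNF inside the cell. In the cortex Bdnf is transcribed in response to neuronal activity, from several promoters that share a coding exon, and TrkB signalling supports synaptic plasticity and memory.

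Each table gives, for every gene, a linear fold change between a pair of groups and an unadjusted p value. Both are listed after upper quartile normalization, which scales libraries by a high quantile of their counts, and again after RUVSeq had removed k estimated sources of unwanted variation, with k from 1 to 4 and, for Familiar over the new-object group, 5. Values below are at k = 4 unless another setting is named. The tables hold 0 columns of values per rat, so levels, depths and the spread between rats cannot be shown. In their place a standard error was worked out from each log2 fold change and its p value on a normal scale (the implied error), where p was under 0.5. Differentially expressed genes (DEGs) were those with an unadjusted p under 0.01 and a ratio at least 25% above 1, or of 0.8 or less.

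None of the members was a DEG in any pair of groups at any setting. At k = 4 the rule called 0 of 6 members for the new-object group over Control, beside 2.66% of all 17257 genes in that table. For Familiar over Control it called 0 of 7, beside 3.72% of 17521 genes, and for Familiar over the new-object group 0 of 7, beside 2.5% of 17461 genes. After Benjamini-Hochberg adjustment over each whole table, 0 members passed an adjusted p of 0.05 in each pair, where 0.869%, 1.97% and 0.407% of all genes passed. The edgeR p values of the authors were under 0.05 before adjustment for 1 member in the new-object group over Control, 0 in Familiar over Control and 1 in Familiar over the new-object group. Over all genes that looser threshold passed 10.1%, 11.9% and 9.59%. Beside shares of that size, 1 member of 6 or 7 is not a result about the members as a group.

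The member behind both counts was Bdnf (ENSRNOG00000047466), the gene of the main TrkB ligand in cortex. Its transcripts were 1.32 times as abundant in the new-object group as in Control, a log2 fold change of 0.40 with an implied error of 0.16 (unadjusted p = 0.0108, adjusted p = 0.268). The change passed the size asked of a DEG and missed the p threshold narrowly, and 4.04% of the genes in the table had a smaller p. The implied 95% interval of the ratio ran from 1.07 to 1.63. Bulk tissue cannot tell fewer cells that make a transcript from less of it in each cell.

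In group Familiar the Bdnf ratio over Control was 1.10, a log2 value of 0.13 with an implied error of 0.16 (unadjusted p = 0.419, adjusted p = 0.871). Its implied 95% interval, 0.878 to 1.37, covered both no change and the ratio found in the new-object group. Both comparisons use the same Control rats. The direct comparison of the trained groups does not involve those rats, and in it the Bdnf ratio of Familiar over the new-object group was 0.81, a log2 value of -0.30 with an implied error of 0.15. That difference had an unadjusted p of 0.0431 and an adjusted p of 0.496, with 8.68% of genes at a smaller p. The implied interval reached from 0.66 to 0.993, so its upper end lay next to no difference. By these ratios the groups stood in the order new-object, Familiar, Control, and no neighbouring pair in that order differed by an adjusted p under 0.05.

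**Figure D1:**
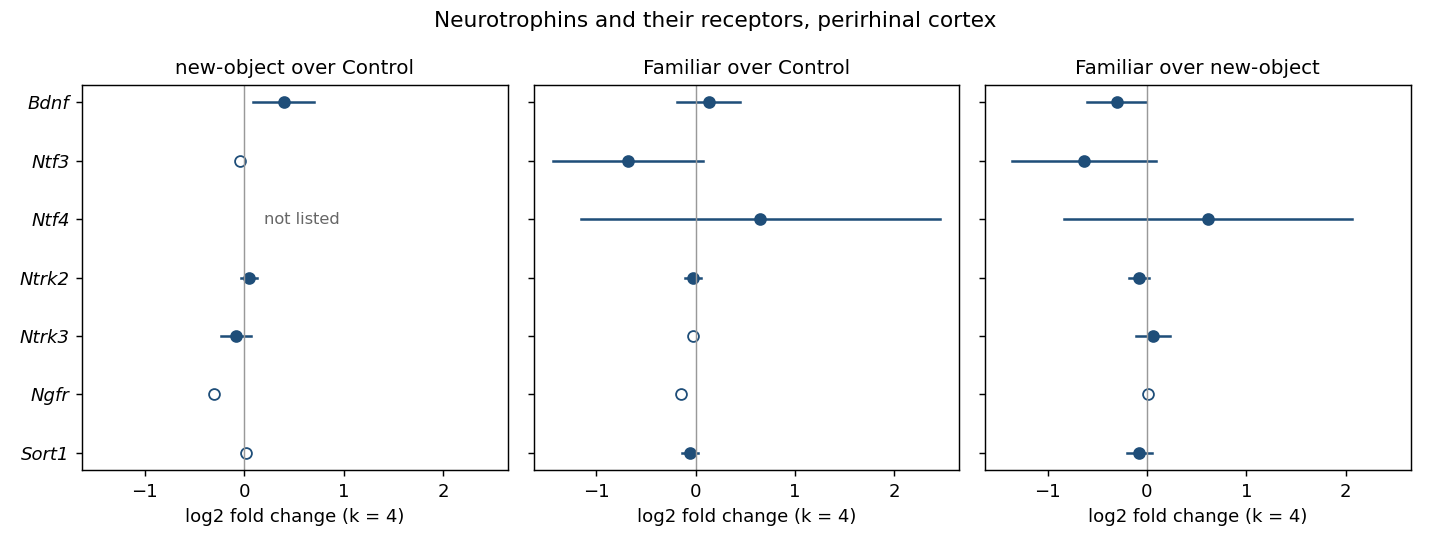
Log2 fold change of each member at k = 4 (x axis) in each pair of groups, from the deposited tables; lines are implied 95% intervals, and open circles mark values with p of 0.5 or more, for which none was worked out. The interval of Bdnf lies above 0 for the new-object group over Control (0.09 to 0.71) and Ntf4 has the widest intervals shown.

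The size of the Bdnf difference hardly moved with the normalization, whereas its p did. Over the 5 settings of the new-object group over Control the log2 fold change stayed between 0.39 and 0.41. The unadjusted p was 0.064 after upper quartile normalization alone, 0.0388 at k = 1, 0.0202 at k = 2 and 0.0102 at k = 3. The implied error went from 0.22 to 0.16 between upper quartile normalization alone and k = 4. The median implied error in that table was 0.27 over the 7280 genes that had one after upper quartile normalization alone and 0.17 over the 9118 that had one at k = 4. The share of all its genes with p under 0.05 went from 3.4% to 10.1%, so smaller p values were a feature of the whole table and not of Bdnf alone. In Familiar over the new-object group the 6 settings gave log2 values between -0.31 and -0.29, with p of 0.189 after upper quartile normalization alone and 0.0373 at k = 5. In Familiar over Control the 5 values lay between 0.11 and 0.14.

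**Figure D2:**
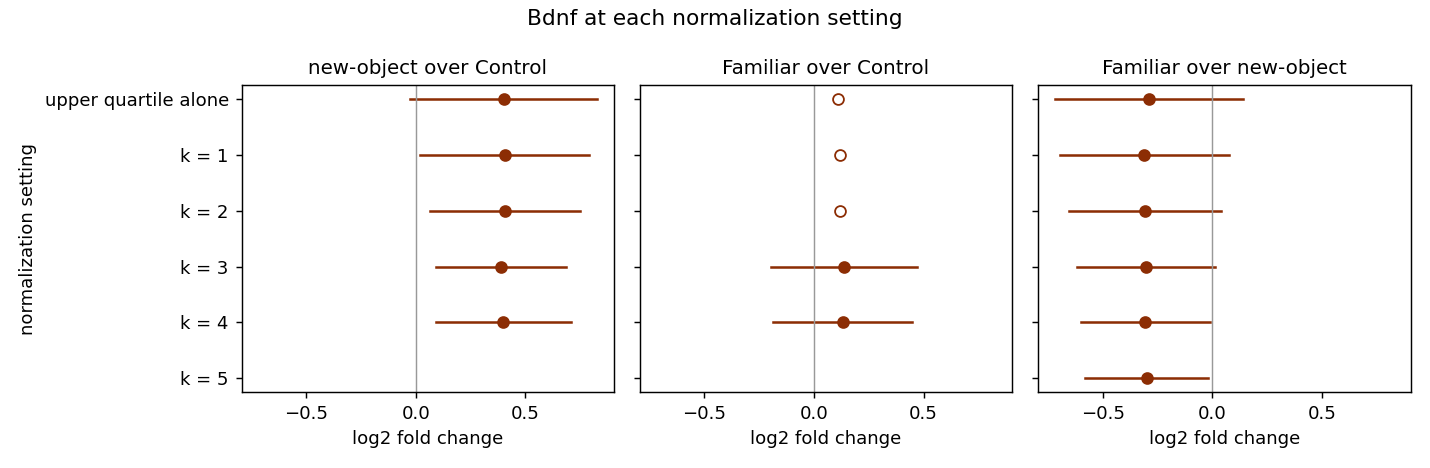
Log2 fold change of Bdnf (x axis) at each normalization setting (y axis) in each pair of groups; lines are implied 95% intervals and open circles mark p of 0.5 or more. In the new-object group over Control the points stay between 0.39 and 0.41 and the interval is widest after upper quartile normalization alone.

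Each pair of groups was normalized separately, so the 3 ratios of a gene need not close. For Bdnf the log2 value of Familiar over Control minus that of the new-object group over Control was -0.27, against -0.30 in the direct table. That gap of 0.037 was close to the median absolute gap of 0.034 over the 16871 genes shared by all tables.

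Ntf3, which encodes the TrkC ligand NT-3, had ratios below 1 in each pair of groups. Its ratio in the new-object group over Control was 0.974 (unadjusted p = 0.986). In Familiar it was 0.624 over Control, a log2 value of -0.68 with an implied error of 0.38 (unadjusted p = 0.0767, adjusted p = 0.492), and 0.645 over the new-object group (unadjusted p = 0.0865, adjusted p = 0.603). Only at k = 5, which exists for the pair of trained groups alone, was the p of Ntf3 under 0.05 (0.0498, with a ratio of 0.606). These point values are larger than those of Bdnf, and so are their errors: at the implied error in Familiar over Control, a 1.99-fold change would have been needed for a p of 0.01. For Bdnf in the same comparison that figure was 1.34-fold.

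Ntf4, the gene of the other TrkB ligand, could be compared only through Familiar. It was 1.57 times Control (unadjusted p = 0.481) and 1.53 times the new-object group (unadjusted p = 0.405). The implied 95% interval of the ratio over Control, from 0.448 to 5.49, allows a large change in either direction. Its implied error there was larger than that of 99.8% of the genes for which one could be worked out. The ratio over Control also moved with the setting, from 2.66 after upper quartile normalization alone to 1.47 at k = 3. The stated filter removes a gene with a mean count below 1 in any group, yet Ntf4 was listed in both tables that involve Familiar and absent from the remaining one. Ntf4 was 1 of 307 genes with this pattern, while 150 were missing only for Familiar over Control and 135 only for Familiar over the new-object group.

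Among the receptors, Ntrk2 encodes TrkB, in a full-length form of neurons and truncated forms without the kinase that astrocytes also make; the tables give 1 value per gene and do not separate them. Its ratios were 1.03 for the new-object group over Control (unadjusted p = 0.221), 0.98 for Familiar over Control (unadjusted p = 0.488) and 0.946 for Familiar over the new-object group (unadjusted p = 0.135). The implied errors were among the smallest in the tables: in the new-object group over Control, 0.0329% of the genes with an implied error had a smaller one. The implied 95% intervals over Control were 0.98 to 1.09 and 0.927 to 1.04, and that between the trained groups was 0.88 to 1.02. A change of 25% therefore lay outside all 3 intervals. At k = 5 the ratio between the trained groups was again 0.946, with an unadjusted p of 0.0402 and an adjusted p of 0.422.

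Ntrk3, the gene of TrkC, gave ratios of 0.945 for the new-object group over Control (unadjusted p = 0.299), 0.984 for Familiar over Control (unadjusted p = 0.78) and 1.04 for Familiar over the new-object group (unadjusted p = 0.462). Its implied interval in the first of these was 0.848 to 1.05. The sign of each of these log2 values was the same at every setting, and over all pairs and settings the smallest p of Ntrk3 was 0.299.

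Ngfr encodes p75, which in the adult forebrain is best known from cholinergic neurons of the basal forebrain and is scarce in cortical neurons. Its ratios were 0.809 for the new-object group over Control (unadjusted p = 0.612), 0.906 for Familiar over Control (unadjusted p = 0.862) and 1.01 for Familiar over the new-object group (unadjusted p = 1). The ratio for Familiar over Control moved with the setting. It was lowest after upper quartile normalization alone, at 0.709 (unadjusted p = 0.508), and highest at k = 4. The p values at k = 4 were too large for an implied error. At k = 1 the new-object group over Control gave an implied error of 0.55, larger than that of 87.6% of the genes with one, and a ratio of 0.725 with an interval from 0.342 to 1.54. A p of exactly 1, as Ngfr had between the trained groups, was also listed for 8.3% of all genes there.

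Sort1, the gene of sortilin, was close to Control in both trained groups, at 1.01 in the new-object group (unadjusted p = 0.686) and 0.962 in Familiar (unadjusted p = 0.184). Familiar over the new-object group gave 0.948 (unadjusted p = 0.224). The implied intervals were 0.909 to 1.02 for Familiar over Control and 0.869 to 1.03 between the trained groups. As with Ntrk2, a change of 25% lay outside both. Ntrk2, Sort1 and Ntrk3 had log2 values between -0.08 and 0.06 at k = 4. The members with values beyond 0.5 in size were Ntf3 and Ntf4, whose implied errors were wide. The implied error is worked out from the log2 value itself, so at like p values a smaller log2 value gives a smaller error. The 2 are therefore not independent.

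Genes that pass on or shape neurotrophin signals were examined as lists. For comparison, the median log2 fold change of all genes was -0.01 in the new-object group over Control, 0.00 in Familiar over Control and 0.01 between the trained groups. The list of Trk adaptors and kinases (38 genes, 39 identifiers) had 0 DEGs in the new-object group over Control, with a median of 0.01. In Familiar over Control it had 1, with a median of -0.04, and between the trained groups 0, with a median of -0.03. The DEG was Crk, an adaptor that links receptor tyrosine kinases to Ras family exchange factors. Crk rose in Familiar over Control by a log2 value of 0.34 with an implied error of 0.09 (adjusted p = 0.0143), its value over the new-object group was 0.30 (adjusted p = 0.0808), and that of the new-object group over Control was 0.01 (unadjusted p = 0.91). After upper quartile normalization alone Crk was not a DEG in Familiar over Control (log2 value 0.35, unadjusted p = 0.0901, adjusted p = 1), and the list had 0 DEGs in each pair. At k = 4 and p under 0.05 without adjustment, 2 genes of this list were lower in the new-object group over Control, 5 were higher and 3 lower in Familiar over Control, and 4 were higher and 2 lower between the trained groups. For this list and those below, the shares of all genes at that threshold were 10.1%, 11.9% and 9.59% in the same order. The DEG shares were 2.66%, 3.72% and 2.5%.

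Partners and adaptors of p75 were sought by 19 symbols, of which 17 were listed, with 0 DEGs in each pair. The symbols Bex3 and Ngfrap1 name the same gene, which was listed under Ngfrap1 and counted once among the 17. Their medians were -0.04, -0.02 and -0.02 in the new-object group over Control, Familiar over Control and Familiar over the new-object group. Unadjusted p values under 0.05 were found for 2, 1 and 1 of them, all lower. Of the genes for cutting and moving neurotrophin precursors, 19 of 22 were listed, and 1 was a DEG in each comparison with Control. The medians of this list were 0.01, 0.02 and 0.01 in the same order of pairs. At p under 0.05 without adjustment, 1 gene was higher and 2 were lower in each comparison with Control, and 1 was lower between the trained groups. The DEG in both cases was Plat, tissue plasminogen activator, a protease that activates plasmin, which can cut proBDNF. Plat rose by 0.40 in Familiar over Control with an implied error of 0.12 (adjusted p = 0.0319). In the new-object group over Control its value was 0.33 with an error of 0.12 (unadjusted p = 0.00725, adjusted p = 0.227), and between the trained groups 0.10 (unadjusted p = 0.377). After upper quartile normalization alone Plat was a DEG in neither comparison with Control, with log2 values of 0.41 (unadjusted p = 0.014, adjusted p = 1) in Familiar and 0.36 (unadjusted p = 0.0573) in the new-object group.

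Known regulators of Bdnf transcription (19 genes, 20 identifiers) had 0 DEGs in each pair. Their median log2 value was 0.04 in the new-object group over Control, -0.03 in Familiar over Control and 0.01 between the trained groups. Unadjusted p under 0.05 was reached in the same order by 1 higher and 2 lower genes, by 3 higher, and by 1 of each. None of the adjusted edgeR p values in this list was under 0.05.

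Transcripts that TrkB signalling is known to induce were a list of 6: Arc, Egr1, Egr2, Fos, Vgf and Npy. Neuronal activity induces them as well, with or without a neurotrophin, so the list does not read out TrkB alone. The list was written with earlier results of these data known, and the study reports Arc, Egr1 and Fos as raised in both trained groups. Its DEG counts are therefore not independent of how the genes were chosen. All 6 were higher in the new-object group over Control, with 4 DEGs and a median of 0.68, and 5 of 6 were higher and DEGs in Familiar over Control, with a median of 0.60. Egr2, a zinc finger transcription factor, had the largest log2 values, 0.99 (adjusted p = 0.00014) and 0.88 (adjusted p = 0.000444). Vgf, which encodes a secreted neuropeptide precursor, had 0.32 (adjusted p = 0.169) and 0.41 (adjusted p = 0.0134). Fos, an immediate early gene, had 0.64 (adjusted p = 0.24) and 0.77 (adjusted p = 0.0728). Arc had 0.85 (adjusted p = 1.48e-06) and 0.75 (adjusted p = 1.37e-05), and Egr1 0.61 (adjusted p = 1.47e-05) and 0.45 (adjusted p = 0.00507). An adjusted p under 0.05 at k = 4 was reached by 3 of the 6 in the new-object group and 4 in Familiar. The shares of all genes that reached it were 0.869% and 1.97%. After upper quartile normalization alone 3 of the 6 were DEGs in each comparison with Control, and 0 passed an adjusted p of 0.05. The DEG shares of all genes were 0.782% and 0.993% at that setting, and 2.66% and 3.72% at k = 4.

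Between the trained groups the median of this list was -0.05 and 1 of the 6 was a DEG. It was Npy, the gene of neuropeptide Y, an inhibitory peptide of cortical interneurons. Npy stood at -0.68 in Familiar over the new-object group with an implied error of 0.26 (unadjusted p = 0.00855, adjusted p = 0.28). Its log2 value over Control was 0.71 in the new-object group (unadjusted p = 0.0105, adjusted p = 0.265) and -0.04 in Familiar (unadjusted p = 0.922). The value of Npy between the trained groups after upper quartile normalization alone was -0.71, with a p of 0.0513.

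Genes most like Bdnf were sought by the root mean square difference in log2 fold change over 15 values, 3 pairs of groups at the 5 settings that all tables hold. Among the closest of 16870 genes were Cyp7b1 (0.018), Akap8 (0.021), Smim3 (0.028) and Fam207a (0.031). Cyp7b1 encodes an oxysterol and neurosteroid hydroxylase and Akap8 a nuclear anchor of protein kinase A. Their log2 values in the new-object group over Control were 0.43, 0.38, 0.40 and 0.42. Of all genes, 253 (1.5%) lay within 0.1 of Bdnf by this measure. The 15 values of a gene come from the same 14 rats and settings of the same counts, so they are not independent.

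Markers of the cell types in the tissue were set beside the members. All 5 markers of excitatory cortical neurons were listed in each table, as were those of inhibitory neurons (6), neurons in general (5), astrocytes (7), oligodendrocytes (6), microglia (5) and meningeal fibroblasts (5). Of the vessel markers 3 of 5 were listed, without Cldn5 and Pecam1, and of the cholinergic neuron markers 2 of 3, without Slc18a3. The 3 markers of dentate granule cells, which lie outside this cortex, were listed too. Presence in a table says only that a gene passed the count filter, and no level can be given.

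In the new-object group over Control, where Bdnf had its largest ratio, all 7 astrocyte markers had positive values, with a median of 0.16 and 3 at an unadjusted p under 0.05. In Familiar over Control, where the Bdnf ratio was nearer 1, 6 of the 7 were positive, with a median of 0.10 and again 3 at that threshold. Gja1, a gap junction protein of astrocytes, passed adjustment there (0.22, adjusted p = 0.0354) and in Familiar over Control (0.23, adjusted p = 0.00937). All 6 oligodendrocyte markers had negative values in the new-object group, with a median of -0.37, and 5 were DEGs. Mbp, the myelin basic protein gene, had -0.56 (adjusted p = 0.0019) there and -0.50 (adjusted p = 2.53e-05) in Familiar. In Familiar over Control 5 of these 6 were negative, with a median of -0.34 and 3 DEGs. The 5 excitatory neuron markers had medians of -0.17 and -0.10 in the same comparisons, and Neurod6, a transcription factor of these neurons, was a DEG in both (-0.40, adjusted p = 0.0898, and -0.51, adjusted p = 0.00724). After upper quartile normalization alone the oligodendrocyte list had 0 DEGs in the new-object group over Control, with a median of -0.28, and 2 in Familiar over Control, with a median of -0.31. The astrocyte and excitatory neuron lists then had 0 DEGs in both. Neurod6 kept nearly the same size, at -0.40 (unadjusted p = 0.0242) and -0.49 (unadjusted p = 0.0171), and no gene of these 3 lists passed an adjusted p of 0.05.

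Medians of the other lists in the new-object group and in Familiar over Control were -0.06 and -0.02 for inhibitory neurons, -0.04 and -0.11 for neurons in general, -0.15 and 0.09 for microglia, 0.12 and 0.17 for vessels, and 0.15 and 0.43 for meningeal fibroblasts. At an unadjusted p under 0.05, 1 general neuron marker was higher in the new-object group and 2 were lower in Familiar. For microglia 1 of 5 markers was higher in the new-object group and 1 lower in Familiar, each against the sign of its list median. The general neuron marker that was higher also went against its median. Syt1, a synaptic vesicle gene among the general neuron markers, passed adjustment in Familiar over Control (-0.14, adjusted p = 0.0201). Its value was again -0.14 after upper quartile normalization alone, with an unadjusted edgeR p of 0.195. Of the fibroblast markers 3 collagen genes, Col1a1, Col1a2 and Col3a1, were DEGs in Familiar over Control. None of the 3 was a DEG after upper quartile normalization alone, where the list median was 0.44 and 1 gene had an unadjusted p under 0.05. At that setting the fibroblast median was 0.27 in the new-object group over Control and 0.13 between the trained groups. For dentate granule cells the medians were -0.18 and -0.08, and for cholinergic neurons 0.01 and 0.17, with 0 DEGs in either list. The 2 cholinergic markers had opposite signs in each pair of groups, so their median does not describe either of them. In the new-object group over Control 1 of the 2 was higher at an unadjusted p under 0.05. The signs of both medians turned in that comparison after upper quartile normalization alone, to 0.06 for dentate granule cells and -0.11 for cholinergic neurons. The microglia median there was -0.05. Between the trained groups, where Bdnf was lower in Familiar, the medians were -0.04 for astrocytes, 0.00 for oligodendrocytes, 0.03 for excitatory neurons, 0.04 for inhibitory neurons and -0.09 for neurons in general. They were -0.10 for microglia, with 4 of 5 markers negative, 0.05 for vessels, 0.05 for meningeal fibroblasts, 0.06 for dentate granule cells and -0.01 for cholinergic neurons. There were 0 DEGs in each of these lists. Mag, a myelin gene, had a value of 0.39 (unadjusted p = 0.0111, adjusted p = 0.31) in that comparison. The part of these cell types in the values of the members was not tested.

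The tables give 1 value for Bdnf, while RefSeq places its transcript starts at several promoters, and 6 of these have a sequence window in the RefSeq table (build GRCr8). One stretch is shown because activity acts on Bdnf through cyclic AMP response elements, whose full letters are TGACGTCA on either strand. The 250 bases before each start were searched for these letters, for the shorter TGACG or CGTCA that they contain, and for TCACGTCA or its other strand TGACGTGA, which overlap the shorter ones. The letters were chosen after the Bdnf windows had been seen. The full element was in 0 of the 6 windows, beside 1.59% of 33469 windows of all genes. The shorter letters were in 1 of 6, beside 18.2%, and TCACGTCA was in the same window, beside 0.35% of all. The match begins 35 bases before a start on the plus strand of chromosome 3, in the promoter stretch chr3:116637783-116637857, with CGTCA in capitals and the letters tca just before it completing the longer form:
Bdnf promoter: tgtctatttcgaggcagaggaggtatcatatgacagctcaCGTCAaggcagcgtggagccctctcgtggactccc
The 3 windows of Ntf3, and those of Ntf4 (1) and Sort1 (1), held 0 matches to any of these letters. The coordinates belong to a later assembly than the one the reads were mapped to. A match describes letters only, and the gene values do not say from which promoter the Bdnf reads came.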

How the data were processed

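Caudal perirhinal cortex of 14 rats was sequenced on the Ion Proton. The authors mapped reads to Rnor_6.0 with TopHat and Bowtie2, counted unique reads per gene with HTSeq, removed k sources of variation with RUVSeq and compared pairs of groups with edgeR. The deposited fold change values are linear ratios, used here as log2 values. The deposited p values are those of the authors' edgeR tests. Their own comparisons were used because the tables hold nothing else. No count test was run, and depth per library is not in the tables. Direction of each ratio follows the study's text. P values were adjusted by Benjamini-Hochberg over each table. Members and lists were chosen with earlier results of these data known. All members were reported. A list gene was named only if a DEG at k = 4 in at least 1 pair or at an adjusted p under 0.05, besides the 5 genes most like Bdnf, of which 1 is not reported, and genes absent from a table or with a second symbol. The limit of p under 0.5 for implied errors was set after the values were seen. These errors treat p as normal, and repeat p values that grew smaller over all genes as k rose. The adjustment and the implied errors were tested on simulated estimates whose p values came from the same normal formula. No counts were simulated, so that test could not show whether the implied errors suit edgeR p values from groups this small. Tools were pandas 2.3.3, scipy 1.17.1 and numpy 2.4.6 under Python 3.11.15, with matplotlib 3.10.9 for plots.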

Additional observations from a re-analysis of the deposited data

Results flagged for a closer look

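In the direct comparison of the trained groups Bdnf had a log2 fold change of -0.30 in Familiar over the new-object group and was not a DEG (unadjusted edgeR p of the authors 0.0431, adjusted p = 0.496). It was singled out because this direct test of the trained groups had an unadjusted p under 0.05. The values over the shared Control rats were 0.13 in Familiar and 0.40 in the new-object group, and the difference between these was not tested itself. At p under 0.05 without adjustment, 9.59% of all genes in that table would be singled out in the same way. After upper quartile normalization alone the value was -0.29 (unadjusted p = 0.189).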

How the results depend on the processing

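No member was a DEG, or passed an adjusted p of 0.05, at any setting, by the edgeR p values of the authors. At an unadjusted p under 0.05 and k = 4 the members counted were 1 for the new-object group over Control, 0 for Familiar over Control and 1 for Familiar over the new-object group. The same threshold at the other settings, added after the data were seen, gave 1 at k = 1, 1 at k = 2, 1 at k = 3 and 0 after upper quartile normalization alone for the new-object group over Control, beside 3.42%, 6.07%, 8.22% and 3.4% of all genes. For Familiar over the new-object group it gave 3 at k = 5 (Bdnf, Ntf3 and Ntrk2, all lower in Familiar), beside 10.9% of all genes, and 0 after upper quartile normalization alone and at k = 1, 2 and 3, beside 2.87%, 3.55%, 6.02% and 8.37%. For Familiar over Control it gave 0 at these 4 settings, beside 4.22%, 5.48%, 8.01% and 9.88%. Of 87 log2 fold changes at other settings, over 20 combinations of member and pair, 86 had the sign found at k = 4. The exception was Ngfr in Familiar over the new-object group, at -0.0035 after upper quartile normalization alone and 0.01 at k = 4; the cause was not tested. No paired analysis was possible because the tables hold no values per rat. Pairing by shared cage could not be taken into account either. Leaving out each replicate was not run for the same reason, so whether 1 rat carries the Bdnf difference is unknown. Only the pair of trained groups has k = 5. Depth per library cannot be read from the tables, and its part in the wide errors of Ntf4, Ntf3 and Ngfr was not tested. DEG counts of the gene lists after upper quartile normalization alone, also added after the data were seen, are given beside the lists whose count changed. At that setting list medians also turned sign for precursor processing, to -0.02 in the new-object group over Control and -0.02 between the trained groups. Between the trained groups they turned for regulators of Bdnf (-0.03), oligodendrocytes (-0.02), vessels (-0.01) and cholinergic neurons (0.28).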
